A study of Homo sapiens with 3 samples.

Results

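The genes described are the receptors and secreted ligands of one guidance system: the neuropilins NRP1 and NRP2, the plexins PLXNA1, PLXNA2, PLXNB1, PLXNB2 and PLXND1, and the class 3 semaphorins SEMA3A, SEMA3C and SEMA3F. They are 10 of the 60506 genes listed, taken by symbol from the names of their 116 listed transcripts. They were chosen by name with their summed and highest-transcript FPKM in these same libraries known, so their differences are given as a description, without tests. RNA was sequenced from HaCaT cells, an immortalized human keratinocyte line that grows in culture as a single line without donors. One library came from cells given a first siRNA against SRSF5 (siRNA 1), one from cells given a second siRNA against it (siRNA 2), and one from cells given a control siRNA and labelled wild type. Transfection was with RNAiMAX and 10 nM of siRNA in every case, and all 3 libraries were made with the same kit. SRSF5 belongs to the SR family of splicing factors, which bind exons of pre-mRNA and help to select splice sites. The sources used here do not give the time after transfection or the siRNA sequences.

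Class 3 semaphorins are secreted proteins that bind neuropilins on the cell surface. Neuropilins have only a short cytoplasmic tail and act with plexins, whose cytoplasmic part is a GTPase-activating domain for small Ras-family GTPases and so passes the signal to the cytoskeleton and to integrin adhesion. Neuropilins also bind VEGF family growth factors beside their tyrosine kinase receptors. In skin, keratinocytes are a known source of SEMA3A, which repels sensory nerve fibres, and plexins of the B class are receptors for transmembrane semaphorins of class 4.

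NRP2, the neuropilin that is the main receptor of SEMA3F, is annotated with alternative last exons. Transcripts of one kind run into a proximal last exon and those of the other kind skip it and run into a distal pair of exons, which gives proteins with different transmembrane and cytoplasmic ends. The junctions are shown because NRP2-201 and NRP2-204, which split there, ranked the siRNA libraries differently. The stretch in which the siRNA libraries stayed apart starts further into the proximal exon, at position 205777157, and does not include the printed bases. Each line holds 24 bases of the shared exon, which ends at position 205766818 of chromosome 2 (GRCh38, plus strand), in lower case, and 24 bases of the exon that follows, in capitals. All of these bases are coding in GENCODE release 29, whose exons for both transcripts matched those in the deposited files.
NRP2-201: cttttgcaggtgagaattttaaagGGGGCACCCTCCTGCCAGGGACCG
NRP2-204: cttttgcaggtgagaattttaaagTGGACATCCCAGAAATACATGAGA
The capitals of NRP2-201 start at position 205776246 and those of NRP2-204 at position 205792235.

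SEMA3C was the member with the highest ratio to the control with siRNA 2. One of its 2 promoters, at chr7:80919002-80919301 (minus strand), is shown because it holds the start of SEMA3C-201, the transcript with most of the reads. The 250 bases before that start at position 80919051 are in lower case and the first 50 transcribed bases are in capitals (RefSeq, build GRCh38.p14). The first exon of SEMA3C-204 starts at position 80919183, within the lower-case bases.
SEMA3C promoter: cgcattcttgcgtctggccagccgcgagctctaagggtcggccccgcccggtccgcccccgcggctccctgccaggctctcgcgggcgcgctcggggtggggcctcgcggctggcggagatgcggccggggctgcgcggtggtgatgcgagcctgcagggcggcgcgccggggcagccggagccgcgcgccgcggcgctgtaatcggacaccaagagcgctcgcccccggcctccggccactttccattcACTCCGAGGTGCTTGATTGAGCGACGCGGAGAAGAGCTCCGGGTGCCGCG
Neither GGAATG, the core bound by TEAD factors, nor TGANTCA, the core bound by AP-1, was found in this window on either strand. The other promoter of the gene was not searched. The first was present in 14.0% and the second in 7.71% of the 35116 promoters of the same length.

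The deposited values were FPKM per transcript, that is, reads scaled to transcript length and to library size. Multiplied by transcript length they were whole multiples of 1 step in every library (100% of values within 0.05). What 1 step stands for is not stated, and 100 steps were taken as 1 read. Low values were often simple fractions of 1 read, such as 0.25, 0.33 and 0.5. Reads therefore appear to have been divided among the transcripts that they overlapped. Transcripts of a gene thus share reads, and its summed FPKM adds shares scaled to different lengths. Read numbers given for bases found in several transcripts are then shares of 1 transcript, below the reads held there. Ranges for parts of exons assume that each base gives the same amount to every transcript that contains it. Reads that cross the border of such a part may not do so. Gene ratios are log2 ratios of summed FPKM + 1, which understates the change of low genes. Levels are compared between genes per length, by the FPKM of the coding transcript that held the most steps, called the full-length transcript below. Where stated, the FPKM of each gene's highest transcript is used instead. Both measures also depend on how many listed transcripts share the reads of a gene, so they do not fix the order of different genes. Counting intervals take 100 steps as 1 read and cover counting error only. They treat shares of divided reads as whole reads, so they give that error only roughly. With 1 library for each siRNA and 1 control library there is no replicate check of a single siRNA, and the SD given beside a mean ratio is that between the 2 siRNAs (n = 2).

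SRSF5 itself had a summed 44.3 FPKM with siRNA 1 and 18.7 FPKM with siRNA 2, against 94.1 FPKM in the control, or 47.1% and 19.8% of the control. The libraries held 4228110936, 4126967673 and 4458622346 steps summed over transcripts with siRNA 1, siRNA 2 and the control. All 5 keratinocyte markers were detected, and their summed highest-transcript FPKM was 1019 with siRNA 1 and 2378 with siRNA 2, against 819 in the control. KRT14 made up most of this sum with siRNA 2, at 1670 FPKM there and 554 FPKM with siRNA 1, against 382 FPKM in the control. ITGA6 was below the control in both siRNA libraries (37.3 and 26.3 FPKM, against 44.6 FPKM), and DSG3 was below it with siRNA 1 alone (41.3 and 150 FPKM, against 55.2 FPKM). Of the markers of other cell types, 1 of 5 fibroblast genes (COL1A1) and none of the 5 endothelial, 4 melanocyte, 4 immune or 4 neural genes reached 1 FPKM in any library, and MLANA, TYR, RBFOX3 and STMN2 were at 0 in all. Mitochondrial transcripts held 15.1%, 10.2% and 14.0% of these steps with siRNA 1, siRNA 2 and the control. The part of the keratinocyte markers and of the mitochondrial share in the ratios below was not tested.

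All 10 genes passed the filter of a mean summed FPKM of at least 1, PLXND1 barely, at a mean of 1.08 and only through its siRNA 1 value. Of them, NRP2 alone was at least 1.5-fold lower with both siRNAs and SEMA3C alone at least 1.5-fold higher with both. In bulk RNA a change in the make-up of the culture and a change in RNA per cell cannot be told apart. Over the 13923 genes past the filter, 1.47% were lower and 3.19% higher by the same rule. The median log2 ratio of the 10 genes was -0.02 with siRNA 1 and -0.52 with siRNA 2, beside -0.02 and 0.05 over all genes past the filter.

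**Figure D1:**
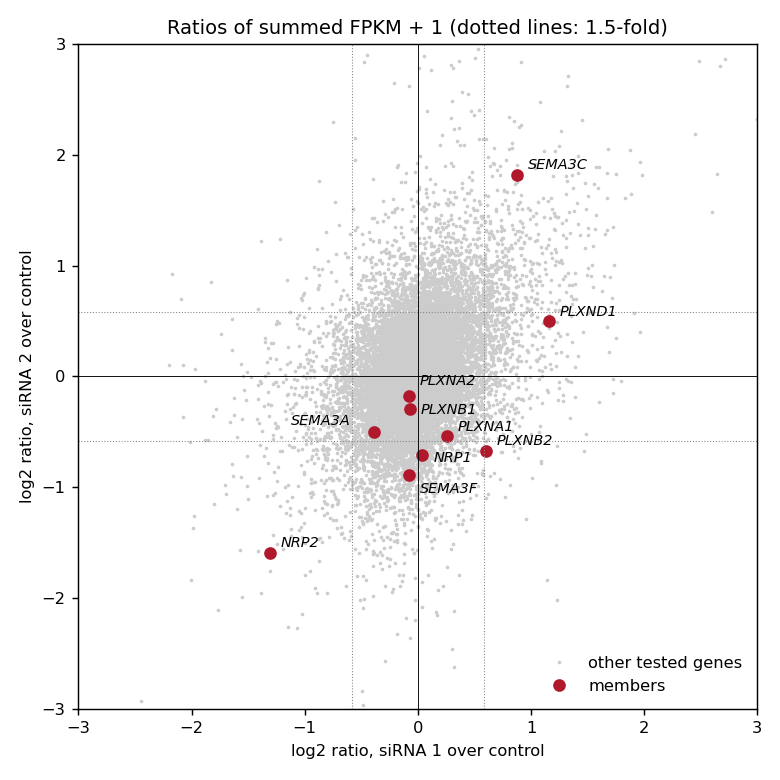
Log2 ratio of summed FPKM + 1 to the control with siRNA 1 (x axis) and siRNA 2 (y axis) for the 10 genes (red) and the other genes past the filter (grey; 8 genes lie outside the axes). Dotted lines mark 1.5-fold; NRP2 lies beyond them at the lower left (-1.31 and -1.59) and SEMA3C at the upper right (0.88 and 1.82).

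Among the ligands, SEMA3C was higher with both siRNAs, SEMA3A was lower with both by less than 1.5-fold, and SEMA3F was lower with siRNA 2 alone by the same rule. SEMA3C (ENSG00000075223.14, chr7:80742538-80922359, minus strand) can signal through either neuropilin and through plexin D1. It had a summed 35.7 FPKM with siRNA 1 and 69.3 FPKM with siRNA 2, against 18.9 FPKM in the control. Both siRNA libraries were above the control, and siRNA 2 was 1.92-fold above siRNA 1. The log2 ratios were 0.88 and 1.82, a mean of 1.35 ± 0.66 (SD, n = 2).

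The spread of reads along SEMA3C is not fixed by the values. The last exon's part found in SEMA3C-201 alone could hold 513 to 1575 reads with siRNA 1 and 1017 to 3050 with siRNA 2, against 314 to 917 in the control. The upper ends are all reads of that transcript. The full-length transcript SEMA3C-201, of 4874 bases, had 7.64 and 15.2 FPKM with siRNA 1 and siRNA 2, against 4.22 FPKM in the control. These values rest on 1575, 3050 and 917 reads of 100 steps in the same order. The counting interval of the ratio to the control was 167% to 197% for siRNA 1 and 334% to 387% for siRNA 2 (exact binomial, 95%). All 9 transcripts listed for SEMA3C were above the control with both siRNAs, the siRNA 1 values being 164% to 253% of it and the siRNA 2 values 317% to 466%. The first exon of SEMA3C-204 and SEMA3C-207, at chr7:80918828-80919183, contains the first exon of SEMA3C-201 and so the capitals of the printed promoter. Given the values of all 9 transcripts, this exon could hold between 14.2 and 50.3 reads with siRNA 1, 13.5 and 78.0 with siRNA 2, and 5.65 and 26.1 in the control. With reads divided among transcripts, these are ranges of 1 transcript's share of the exon. They overlap, so the promoter-proximal exon alone does not rank the libraries.

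SEMA3A (ENSG00000075213.11, chr7:83955777-84492724, minus strand) binds NRP1 and signals through plexins of the A class. SEMA3A had a summed 48.8 FPKM with siRNA 1 and 45.0 FPKM with siRNA 2, against 64.0 FPKM in the control. Both siRNA libraries were below the control and close to each other, with log2 ratios of -0.39 and -0.50 and a mean of -0.44 ± 0.08 (SD, n = 2). The full-length transcript SEMA3A-201, of 8113 bases, was at 73.4% of the control with siRNA 1 and 68.9% with siRNA 2. Its counting intervals were 70.1% to 76.8% and 65.8% to 72.2%. The 2 lncRNA transcripts of the gene, SEMA3A-206 and SEMA3A-207, held at most 0.14 reads of 100 steps in any library, so their ratios are not given.

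SEMA3F (ENSG00000001617.12, chr3:50155045-50189075, plus strand) is the class 3 ligand with the strongest preference for NRP2. It had a summed 21.2 FPKM with siRNA 1 and 11.7 FPKM with siRNA 2, against 22.5 FPKM in the control. The siRNA 1 library lay near the control, at a log2 ratio of -0.08, and the siRNA 2 library stood apart from both, at -0.89. All 9 SEMA3F transcripts were below the control with siRNA 2, at 46.4% to 57.2% of it, and with siRNA 1 they ran between 83.2% and 101%.

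The order of the ligands differed between libraries. By the full-length transcript, SEMA3C stood at 0.821 times SEMA3A with siRNA 1 and 1.74 times with siRNA 2, against 0.332 times in the control. By the highest transcript of each gene the ratio was 0.477 and 1.02, against 0.186 in the control. SEMA3C was thus above SEMA3A only in the siRNA 2 library by either measure. By the full-length transcript SEMA3F was the lowest of the 3 in every library, at 2.48 FPKM with siRNA 1, 1.43 FPKM with siRNA 2 and 2.84 FPKM in the control. By summed FPKM SEMA3C was the lowest in the control, at 18.9 FPKM, against 22.5 FPKM for SEMA3F.

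**Figure D2:**
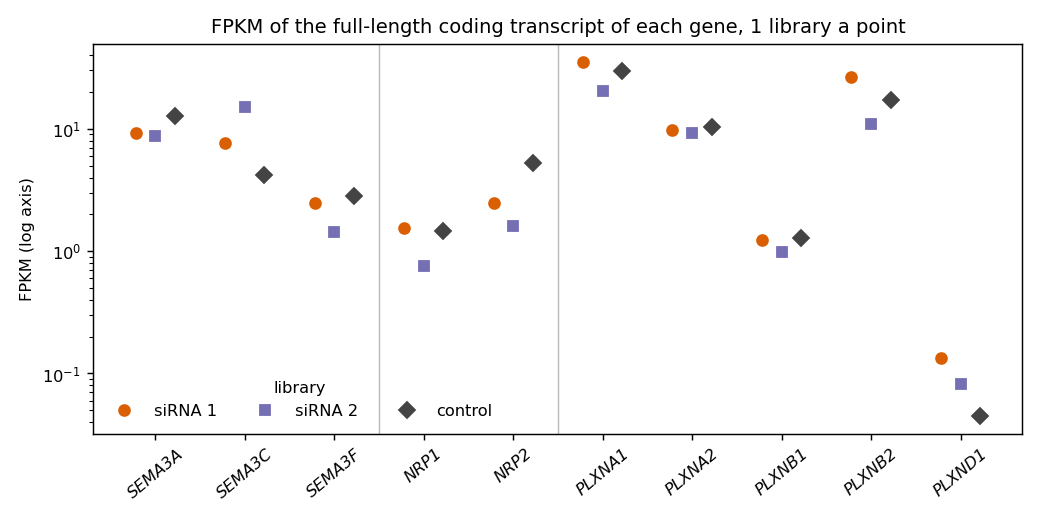
FPKM of the full-length transcript of each gene (log axis), with 1 point per library: siRNA 1 (circles), siRNA 2 (squares) and control (diamonds). Ligands are at the left, neuropilins in the middle and plexins at the right; SEMA3C reaches 15.2 FPKM with siRNA 2, and PLXND1 stays below 1 FPKM throughout.

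Of the neuropilins, NRP2 was lower with both siRNAs and NRP1 with siRNA 2 alone. NRP2 (ENSG00000118257.16, chr2:205681990-205798133, plus strand) had a summed 24.7 FPKM with siRNA 1 and 20.0 FPKM with siRNA 2, against 62.4 FPKM in the control. Both siRNA libraries were far below the control, at 39.5% and 32.1% of it, and near each other. The log2 ratios were -1.31 and -1.59, a mean of -1.45 ± 0.20 (SD, n = 2). All 17 transcripts listed for NRP2 were below the control in both siRNA libraries, the siRNA 1 values being 28.3% to 47.0% of it and the siRNA 2 values 23.4% to 42.1%.

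The longest NRP2 transcript, NRP2-204, which ends in the distal exons, had 2.49 and 1.62 FPKM with siRNA 1 and siRNA 2, against 5.30 FPKM in the control. It rests on 702, 446 and 1574 reads of 100 steps. Its counting interval ran between 43.0% and 51.4% of the control for siRNA 1 and between 27.5% and 34.0% for siRNA 2. NRP2-201, which ends in the proximal exon, had 0.787 and 1.01 FPKM with siRNA 1 and siRNA 2, against 2.77 FPKM in the control, or 28.3% and 36.5% of it. The lower of the siRNA libraries was thus siRNA 2 for NRP2-204 and siRNA 1 for NRP2-201. No other protein-coding NRP2 transcript was lower with siRNA 1, NRP2-202 for instance being at 34.9% and 30.6% of the control. Some noncoding forms were, such as NRP2-214 at 34.3% and 36.3%. The order is therefore given for these transcripts and not for the ends as a class.

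Most of each transcript is shared, so the parts found in one transcript were examined alone. NRP2-204 contains all of NRP2-203, and the 3736 bases of NRP2-204 outside it are 760 bases at the start of the first exon, a 15-base extension at the shared junction and 2961 bases at the end of the distal last exon (chr2:205795173-205798133). The share of NRP2-204 in these bases was 522.2 reads with siRNA 1 and 318.0 with siRNA 2, against 1131 in the control. As FPKM this was 48.7% and 30.3% of the control. The proximal last exon has 2558 bases found in NRP2-201 and in no other transcript (chr2:205777157-205779714). Given the values of all 17 transcripts, this stretch could hold between 0 and 41.7 reads with siRNA 1 and between 82.4 and 113 with siRNA 2, against 138 to 256 in the control. With counting error the siRNA 1 range reaches at most 56.8 reads and the siRNA 2 range starts at 65.2. Under the sharing of reads assumed, the ranges of the siRNA libraries thus did not overlap. Whether reads that cross the border of the stretch change this was not tested. The siRNA 2 range reaches 136 and the control range starts at 116, so those did overlap. The whole proximal exon (3469 bases) could hold 0 to 92.8 reads with siRNA 1 and 98.9 to 163 with siRNA 2, against 201 to 461 in the control. With counting error the siRNA 1 range of the whole exon reaches 114 and the siRNA 2 range starts at 80.5, so they overlapped. For the distal pair of exons the possible ranges were wide and ranked nothing. They were 16.9 to 598 with siRNA 1 and 0 to 362 with siRNA 2, against 0 to 1304 in the control. The whole proximal exon and the distal pair hold bases of several transcripts, so with divided reads their ranges understate the reads held there. Of these stretches, the NRP2-201 part of the proximal exon was the one specific to an end in which the siRNA libraries stayed apart, since the 3736 bases include the start of the first exon. This rests on 1 library of each siRNA and on the sharing of reads assumed for the ranges.

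**Figure D3:**
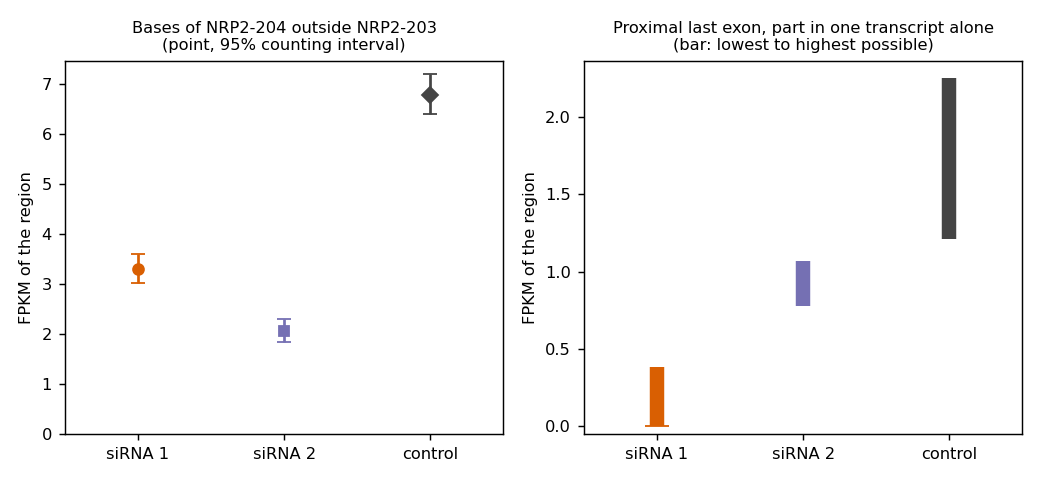
FPKM of the NRP2 bases outside NRP2-203 but inside NRP2-204 (left; points with 95% counting intervals) and the range of possible FPKM of the proximal last exon's NRP2-201 part (right; bars), in siRNA 1, siRNA 2 and control libraries. At the left siRNA 2 is the lowest, at 2.06 FPKM. At the right siRNA 1 is the lowest, between 0 and 0.385 FPKM. The bars assume that each base gives the same amount to every transcript that contains it.

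NRP1 (ENSG00000099250.18, chr10:33177492-33336262, minus strand), the main neuropilin of SEMA3A and of VEGF-A, had a summed 18.4 FPKM with siRNA 1 and 10.6 FPKM with siRNA 2, against 17.9 FPKM in the control. The siRNA 1 library was level with the control and the siRNA 2 library below both, with log2 ratios of 0.04 and -0.71. All 14 NRP1 transcripts were below the control with siRNA 2, while with siRNA 1 7 were below and 7 above. The full-length transcript NRP1-201 was at 106% of the control with siRNA 1 (91.8% to 122%) and 51.4% with siRNA 2 (42.8% to 61.4%). By the full-length transcripts NRP1 was below NRP2 in every library, at 0.622 and 0.465 times NRP2 with siRNA 1 and siRNA 2, against 0.277 times in the control. By the highest transcript of each gene, NRP1 was above NRP2 with siRNA 1, at 1.38 times, and below it with siRNA 2 and in the control, at 0.743 and 0.466 times. The order of the neuropilins with siRNA 1 therefore depends on the transcript used, and in all 3 libraries NRP2 exceeded NRP1 by the longer one.

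Among the plexins, no gene moved the same way by 1.5-fold with both siRNAs, and PLXNB2 moved in opposite directions. PLXNB2 (ENSG00000196576.15, chr22:50274979-50307646, minus strand) is a receptor for SEMA4C and other class 4 semaphorins. The summed level was 432 FPKM with siRNA 1 and 179 FPKM with siRNA 2, against 285 FPKM in the control. Its log2 ratios were 0.60 and -0.67, and 24 genes, or 0.172% of those past the filter, were at least 1.5-fold higher with siRNA 1 and at least 1.5-fold lower with siRNA 2. The siRNA 1 ratio, 1.51-fold, lies just inside that limit. All 14 PLXNB2 transcripts were above the control with siRNA 1, at 139% to 171% of it, and below it with siRNA 2, at 57.3% to 67.5%. The full-length transcript PLXNB2-207 held 7097 and 2906 reads with siRNA 1 and siRNA 2, against 4880 in the control.

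PLXNA1 (ENSG00000114554.11, chr3:126988594-127037392, plus strand) is a co-receptor with NRP1 for SEMA3A. Its summed level was 152 FPKM with siRNA 1 and 86.8 FPKM with siRNA 2, against 127 FPKM in the control. The libraries lay on either side of the control as for PLXNB2, but by less than 1.5-fold, with log2 ratios of 0.26 and -0.54. Its 4 transcripts lay between 120% and 124% of the control with siRNA 1 and between 66.4% and 76.3% with siRNA 2. PLXNA1 had the highest full-length FPKM of the 10 genes in each library. It was at 35.4 and 20.2 with siRNA 1 and siRNA 2, against 29.6 in the control. By summed FPKM PLXNB2 was above PLXNA1 in each library, at 432 and 179 FPKM, against 285 FPKM in the control. PLXNA1 has 4 listed transcripts and PLXNB2 has 14, so the order of these genes depends on the measure. The highest transcript of PLXNA1 is a 410-base retained-intron form, PLXNA1-203.

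PLXNA2 (ENSG00000076356.7, chr1:208022242-208244384, minus strand), another receptor partner of the neuropilins, had the smallest spread of the members. It had a summed 59.8 FPKM with siRNA 1 and 56.1 FPKM with siRNA 2, against 63.5 FPKM in the control, with log2 ratios of -0.08 and -0.18. PLXNB1 (ENSG00000164050.13, chr3:48403854-48430086, minus strand), the receptor of SEMA4D, had a summed 27.0 FPKM with siRNA 1 and 23.0 FPKM with siRNA 2, against 28.4 FPKM in the control. Its log2 ratios were -0.07 and -0.29. Neither gene reached 1.5-fold in either library.

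PLXND1 (ENSG00000004399.12, chr3:129555175-129606818, minus strand), the plexin that binds SEMA3E directly and is best known in endothelium, was near the limit of detection. Summed over transcripts it had 2.00 FPKM with siRNA 1 and 0.899 FPKM with siRNA 2, against 0.344 FPKM in the control. Its full-length transcript held 39.8 and 23.9 reads with siRNA 1 and siRNA 2, against 14.2 in the control. The ratio to the control was 295% with siRNA 1 (160% to 600%), and with siRNA 2 it was 181% with a counting interval of 92.0% to 387% that includes no change. With a pseudocount of 0.1 FPKM in place of 1, PLXND1 was also at least 1.5-fold higher with both siRNAs. By the full-length transcripts PLXNB2 stood 21.4 and 11.1 times above PLXNB1 with siRNA 1 and siRNA 2, against 13.4 times in the control. PLXNA1 stood 3.60 and 2.18 times above PLXNA2, against 2.87 times in the control.

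**Figure D4:**
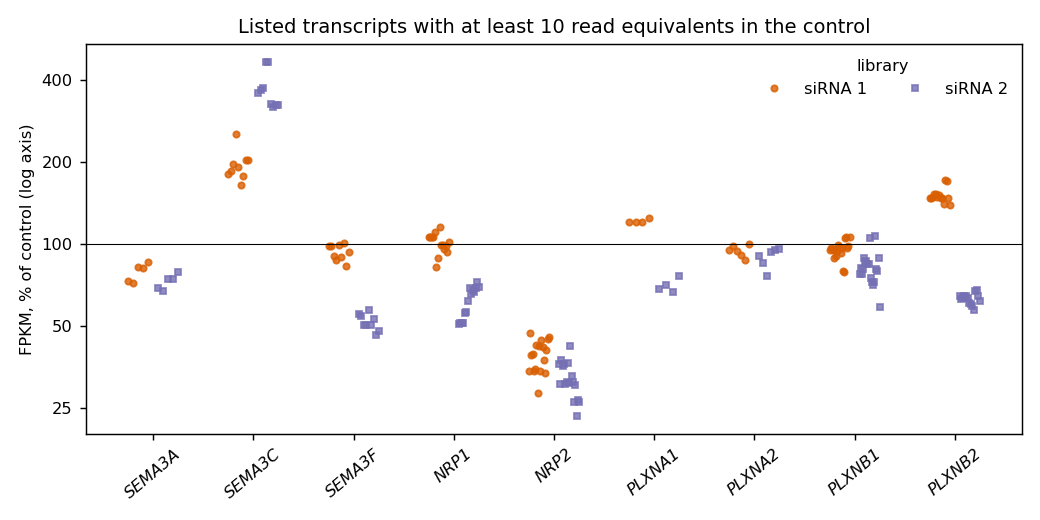
FPKM of each listed transcript as a percentage of the control (log axis) with siRNA 1 (circles) and siRNA 2 (squares). Drawn are 97 transcripts of 9 genes with at least 10 read equivalents of 100 steps in the control, and PLXND1 is left out. No NRP2 point lies above 47.0% and no SEMA3C point below 164%, whereas PLXNB2 lies above the control with siRNA 1 and below it with siRNA 2.

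Taken one siRNA at a time, 1 of the 10 genes (NRP2) was at least 1.5-fold lower and 3 (PLXNB2, PLXND1 and SEMA3C) at least 1.5-fold higher with siRNA 1. Over all genes past the filter 5.47% were lower and 6.18% higher. With siRNA 2, 4 genes (NRP1, NRP2, PLXNB2 and SEMA3F) were lower and 1 (SEMA3C) higher, beside 10.1% and 13.2% of all genes. Between the siRNAs, 5 genes (NRP1, PLXNA1, PLXNB2, PLXND1 and SEMA3F) were at least 1.5-fold lower with siRNA 2 than with siRNA 1, beside 10.5% of all genes. SEMA3C was higher with siRNA 2 than with siRNA 1, beside 13.7%. The comparisons share the control library, and they were in view when the genes were picked, so nothing is read from these counts.

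The other genes of the pathway were taken from 6 lists of 79 genes, of which 52 passed the filter, 5 were at least 1.5-fold higher with both siRNAs and none was lower, beside 3.19% higher and 1.47% lower over all genes past the filter. These lists too were drawn up with results of these data known. Of the 4 other class 3 semaphorins 1 passed the filter. SEMA3D, which lies beside SEMA3A, had a summed 18.7 FPKM with siRNA 1 and 18.1 FPKM with siRNA 2, against 6.37 FPKM in the control, with log2 ratios of 1.42 and 1.37. SEMA3C, SEMA3E, SEMA3A and SEMA3D lie in that order within 4.44 Mb of chromosome 7, all on the minus strand. SEMA3E was nearly silent in all libraries, at 0.0366 and 0.00861 FPKM with siRNA 1 and siRNA 2, against 0.0847 FPKM in the control. The neighbours on this stretch thus differed in direction, with SEMA3C and SEMA3D above the control and SEMA3A below it. SEMA3B reached at most 0.35 FPKM and SEMA3G at most 0.00458 FPKM.

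Of the 4 other plexins 1 passed the filter. PLXNA3, a further partner of the neuropilins, had a summed 31.6 FPKM with siRNA 1 and 30.7 FPKM with siRNA 2, against 25.2 FPKM in the control, and its log2 ratios of 0.31 and 0.27 did not reach 1.5-fold. PLXNA4, PLXNB3 and PLXNC1 stayed at or below 0.273 FPKM.

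Of the 13 semaphorins of classes 4 to 7, 8 passed the filter and 1, SEMA6B, was higher with both siRNAs. SEMA6B, a transmembrane ligand of A-class plexins, had a summed 9.99 FPKM with siRNA 1 and 5.58 FPKM with siRNA 2, against 2.51 FPKM in the control (log2 ratios 1.65 and 0.91). SEMA4B, whose highest transcript had the highest mean FPKM of this list, did not differ in sum by 1.5-fold, with 103 FPKM in both siRNA libraries and 102 FPKM in the control.

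Among co-receptors and VEGF ligands and receptors, 7 of 14 passed and 2 were higher with both siRNAs. MET, the hepatocyte growth factor receptor that associates with B-class plexins, had a summed 105 FPKM with siRNA 1 and 115 FPKM with siRNA 2, against 66.5 FPKM in the control. L1CAM, an adhesion protein that binds NRP1 in neurons, had 1.21 and 7.40 FPKM with siRNA 1 and siRNA 2, against 0.174 FPKM in the control, so that its siRNA 2 value stood apart (log2 ratios 0.91 and 2.84). L1CAM passed the filter only through its siRNA 2 value, and its control value rests on 2.61 reads, so its place among the 5 genes carries no weight. ITGB1, the integrin beta 1 subunit and the highest of this list by mean highest-transcript FPKM, had a summed 447 and 496 FPKM with siRNA 1 and siRNA 2, against 566 FPKM in the control. The VEGF receptors FLT1, KDR and FLT4, the partners of the neuropilins in endothelium, stayed at or below 0.453 FPKM.

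Of the 36 signal transducers 27 passed and 1 was higher with both siRNAs. MICAL2, an enzyme that oxidises actin and belongs to the family of plexin-binding MICAL proteins, had a summed 36.6 FPKM with siRNA 1 and 28.5 FPKM with siRNA 2, against 17.1 FPKM in the control (log2 ratios 1.05 and 0.70). CFL1, the actin-severing protein cofilin and the highest of this list by the same measure, had a summed 655 and 904 FPKM with siRNA 1 and siRNA 2, against 627 FPKM in the control. The median log2 ratio of this list was -0.04 with siRNA 1 and 0.29 with siRNA 2, beside -0.02 and 0.05 over all genes. All 8 proteases that cut semaphorins or neuropilins passed the filter and none reached 1.5-fold in both libraries. MMP14, a membrane-bound matrix metalloprotease and the highest of these by mean highest-transcript FPKM, had a summed 274 and 170 FPKM with siRNA 1 and siRNA 2, against 224 FPKM in the control.

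**Figure D5:**
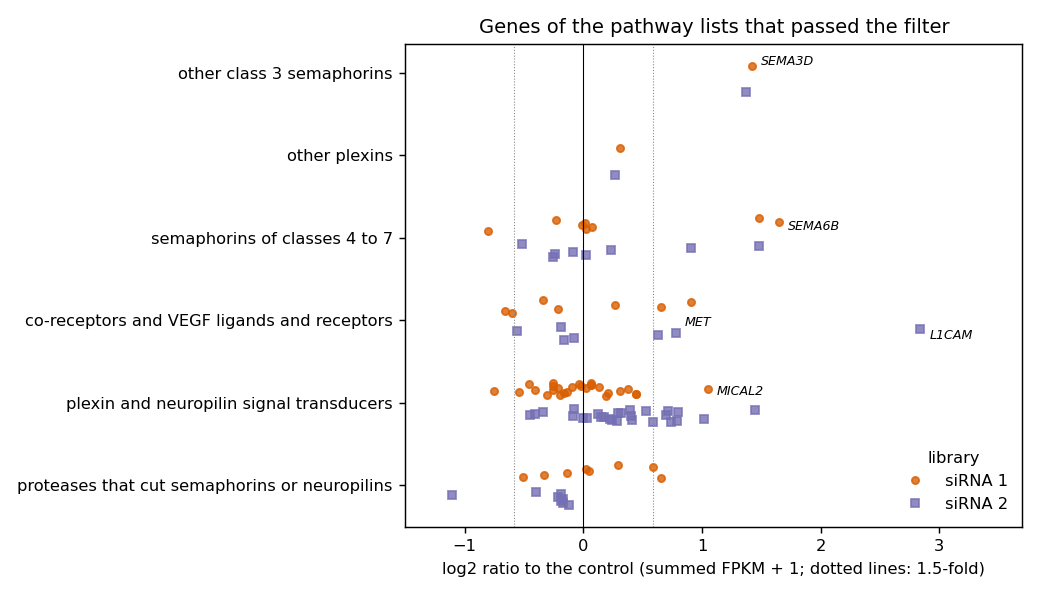
Log2 ratio to the control of the 52 pathway genes past the filter, with siRNA 1 (circles) and siRNA 2 (squares), by list. Dotted lines mark 1.5-fold; the 5 named genes (SEMA3D, SEMA6B, MET, L1CAM and MICAL2) are those beyond the upper line with both siRNAs.

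Taking the siRNA libraries as 2 samples against 1 control in limma's moderated test, with 1 residual degree of freedom, 0 of the 52 pathway genes and 0 of the 13923 genes past the filter were called at a limma p of 0.05 after Benjamini-Hochberg adjustment. Over all genes the lowest adjusted p from limma was 0.10. At an unadjusted p below 0.05 there were 416 genes, and 4 pathway genes higher and 0 lower. With robust variance moderation 3 genes passed the adjusted threshold. Calls of single genes above therefore rest on the size of the ratio in each library.

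Genes with the most similar pair of ratios were found by Euclidean distance between the log2 ratios with siRNA 1 and siRNA 2, that is, over 2 values. Those nearest to NRP2 were LINC00342, ACSS2, ABCC3, MFSD2A and BST2, at distances of 0.096 to 0.16, and 1 gene lay within 0.1. Those nearest to SEMA3C were UBE2B, SERPINE2, CMTM3, RETREG1 and PGBD5, at 0.041 to 0.16, with 4 genes within 0.1. Those nearest to SEMA3A were CSF1, LY6E-DT, TMEM53, LCA5 and DHRS13, at 0.0063 to 0.024. As many as 144 genes lay within 0.1 of SEMA3A. Larger ratios have fewer genes around them, so these counts follow the size of the ratios. That size was known when the members were chosen, so the counts do not make the pattern of NRP2 or SEMA3C a particular one.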

How the data were processed

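The mRNA libraries were made from total RNA of HaCaT cells with a SMARTer kit, per the labels' protocols. The authors deposited 1 table per library with FPKM per transcript, exon positions and transcript lengths. The submitters' processing notes name the builds GRCh38.p12, GRCm38 and mm10, and no aligner or counter is named in the labels or files. Entries not on a chromosome and the Y copies of pseudoautosomal genes were left out. From the FPKM, whole steps were recovered by length, genes were summed over transcripts, and log2 ratios were taken of FPKM + 1. Genes with a mean summed FPKM of at least 1 were kept, and 1.5-fold with both siRNAs was the call. Exon ranges came from linear programming in SciPy 1.17.1, which found a solution for all 30 gene and library pairs. It took each base to give the same amount to every transcript that contains it. limma 3.58.1 was tested on simulated data and run on all genes. The FPKM are not counts, so no count test was run. Named genes were the members, SRSF5, list genes past 1.5-fold with both siRNAs, the highest gene of each list, the other plexins and class 3 semaphorins, and the 5 nearest genes. The members and lists were chosen with earlier results of these data known. Whether the libraries came from separate cultures is not stated, so the spread between them may be technical. Alternatives were the pseudocount, the filter, the gene summary, the scaling and each siRNA alone.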

Additional observations from a re-analysis of the deposited data

How the results depend on the processing

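No paired analysis was possible because the control has 1 library and the replicate numbers name different siRNAs. Of 79 member ratios under an alternative, 74 moved by less than the spread between the siRNAs and 5 moved more. The filter settings cannot change a gene's ratio. Leaving out 1 siRNA always moves the mean by less than the SD between the siRNAs. Those alternatives could not count as moved, so the 74 are no measure of how stable the ratios are. Neither NRP2 nor SEMA3C changed sign, but 4 ratios of 3 uncalled members did: NRP1 (0.04), PLXNA1 (0.26) and PLXNB2 (0.60) without siRNA 2, and PLXNB2 (0.05) by the highest transcript. The mean log2 ratio of NRP2 was -1.18 by the highest transcript and -1.02 by the mean over transcripts, and that of PLXND1 was 1.70 with a pseudocount of 0.1 and 0.19 and 0.09 by those summaries. For siRNA 2 over siRNA 1, PLXNA2 was 0.03 by the highest transcript, so its sign is not fixed. NRP2 was -0.07 by the highest transcript, against -0.29 in the main setting. With median scaling PLXNA1 was -0.87 and PLXNB2 -1.34, against -0.80 and -1.27. With a pseudocount of 0.1, 2 members were higher with both siRNAs (PLXND1 was added) and 713 of all genes. Without siRNA 1, 4 members were lower and 1 higher, and without siRNA 2, 1 was lower and 3 higher. With either left out in turn there were 762 to 1410 of all genes lower and 861 to 1834 higher, and 1 to 4 pathway genes lower and 8 to 14 higher. By the mean over transcripts, 99 genes were lower and 188 higher, with 3 pathway genes higher. Higher genes numbered 291 with a filter of 5 FPKM and 248 by the highest transcript, while the reported counts were 444 higher and 205 lower. Robust moderation in limma called 3 genes, against 0. The cause of these shifts was not tested. Few reads limit PLXND1, and bases shared between transcripts limit the NRP2 end regions.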

Other observations

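Some pathway genes were at least 1.5-fold from the control in 1 siRNA library only and were chosen here after their values were seen. SEMA7A, a membrane-anchored semaphorin that binds PLXNC1 and integrins, had a summed 6.64 FPKM with siRNA 1 and 0.908 FPKM with siRNA 2, against 1.73 FPKM in the control. Its log2 ratios of 1.48 and -0.52 lay on opposite sides of the control, the second just short of 1.5-fold. SEMA6D, a transmembrane semaphorin, had 0.411 and 3.63 FPKM with siRNA 1 and siRNA 2, against 0.657 FPKM in the control. SEMA6D passed the filter only through its siRNA 2 value. Its largest transcript held 6.14 and 57.7 reads with siRNA 1 and siRNA 2, against 10.6 in the control, so its difference carries little weight. ADAM17, a sheddase of membrane proteins, had 37.6 and 16.6 FPKM with siRNA 1 and siRNA 2, against 37.0 FPKM in the control. FURIN, the convertase that cleaves class 3 semaphorins, had 124 and 72.5 FPKM with siRNA 1 and siRNA 2, against 78.9 FPKM in the control. DPYSL3, a collapsin response mediator family protein, had 7.15 and 21.8 FPKM with siRNA 1 and siRNA 2, against 7.35 FPKM in the control.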
